A study of Mus musculus with 6 samples.

Results

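The RNA of 68 protein-coding genes was detected on every array of cells depleted of the RNA exosome subunit Exosc8 and on no array of control cells. They were found among 19980 genes with a coding RefSeq accession (NM_) on the array, a share of 0.34%. A gene entered the set when a probe for it was well above background on all 3 shExosc8 arrays and on none of the 3 shControl arrays. It was dropped when any other probe for it was well above background on a shControl array. The flag for "well above background" was set by the scanner software for each spot. The members were thus chosen by these measured flags, so their values in this comparison are given as a description and no test supports them.

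The cells were erythroid progenitors from mouse fetal liver at embryonic day E-14.5. In the shExosc8 group (3 arrays) a retrovirus delivered a short hairpin RNA against Exosc8. In the shControl group (3 arrays) it delivered a hairpin against luciferase, a gene that mouse cells lack. All 6 samples otherwise shared the isolation kit, the virus produced in 293T cells, polybrene, and a culture of 3 days with dexamethasone, erythropoietin and kit ligand. RNA was taken from cells in bulk, and the labels do not mention a selection of infected cells. No label says whether replicates were separate animals or cultures, so p-values here speak only of array-to-array spread, possibly technical.

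The RNA exosome is a ring-shaped complex that trims and degrades RNA from the 3′ end in nucleus and cytoplasm, and Exosc8 is part of its ring. It removes RNA processing by-products, unstable transcripts from promoters and enhancers, and many messenger RNAs with AU-rich ends. Maturing erythroid cells narrow their expression to globins, haem synthesis and red cell membrane proteins. A list of genes that leave background can be read by the lineage in which each gene is best known. Genes already detected in the controls cannot enter it, however. On all 6 arrays 41 of 47 megakaryocyte and platelet genes and 35 of 43 neutrophil and monocyte genes were detected, so such lineages could hardly appear.

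The set was mixed in function and lineage. By textbook knowledge, 17 members are best known from white blood cells, 16 from a tissue outside the blood, and 35 are broadly expressed or could not be assigned. By role, 15 encode immune cell and host defence proteins, 10 proteins of structure, trafficking and stress, 8 receptors for signals or matrix, 8 lipid, steroid and detoxification enzymes, 6 intracellular regulators, 5 secreted or membrane-bound signals, 5 channels and transporters, 4 enzymes and proteoglycans of glycans and matrix, and 7 are little characterised. No member belonged to the lists of late erythroid, megakaryocyte, neutrophil, T and NK cell or B cell genes. In bulk RNA, more cells of a type and more RNA per cell cannot be told apart.

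Signals are given in intensity units after scaling each array to a common 75th percentile over 21605 probes that were well above background on all 6 arrays. Because no shControl array measured a member well above background, only a lower bound of its difference can be given. It sets the mean shExosc8 signal against, on each shControl array, the higher of the probe's own signal and the lowest signal of any probe well above background there (25.7, 25.1 and 36.4 units on replicates 1, 2 and 3). Means were taken on the log2 scale. The bounds ran from 2.24-fold (Thbd) to 18.5-fold (Cnrip1), with a median of 3.87-fold. At least 10-fold was reached by 4 members and at least 4-fold by 33.

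The share of non-control spots well above background was 46.9%, 45.9% and 43.1% on shExosc8 replicates 1, 2 and 3, and 49.3%, 67.3% and 45.1% on shControl replicates 1, 2 and 3. The control array of replicate 2 thus stood apart, and it decided the size of the set. Without it 172 genes met the rule. Leaving out shExosc8 replicate 3, the array with the fewest spots above background, gave 123 genes. Since leaving out an array can only relax the rule, all 68 members were bound to be kept in both. The mirrored rule, detected on all shControl arrays and on no shExosc8 array, found 130 genes (0.651%), or 139 without shControl replicate 2 and 177 without shExosc8 replicate 3. The arrays shared a single slide, with the shExosc8 arrays in row 2 and the shControl arrays in row 1, so position and group cannot be told apart. Exosc8 itself, whose probe lies at 54535935 to 54536079 on the minus strand of chromosome 3 (mm9), read 7154, 7079 and 10169 units on the shExosc8 arrays, against 17445, 17325 and 18399 units on the shControl arrays. It was above background on all 6 arrays, with a log2 fold change of -1.14 ± 0.16 (SE) and a limma adjusted p of 0.00554. Of 45 late erythroid genes on the array, 44 were detected on all 6 arrays. So were 41 of 47 megakaryocyte and platelet genes and 35 of 43 neutrophil and monocyte genes, so detection alone does not single out erythroid cells.

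Over the 18219 names that passed the filter on dim probes, limma called 2923 higher (16.0%) and 2540 lower (13.9%) in shExosc8 at an adjusted p under 0.05. Among names with a coding accession, 1984 of 12019 were higher (16.5%). All 68 members were called higher, which the rule had all but fixed, and nothing is read from that count. In 23.2% of all names the shExosc8 signals lay wholly above the shControl signals, and for the members the rule left little else possible. The lowest shExosc8 signal was at least 2 times the highest shControl signal in 63 members. The other 5, Scnn1a, Aqp9, Cdk18, Kctd1 and Akr1b7, came closer to overlap. The share of rises among all calls depended on the scaling: it was 53.5% as reported, 37.1% with the percentile over all probes, 66.9% after another background correction (normexp) and 18.0% with no scaling between arrays.

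Largest bounds came from genes of quite different tissues. Cnrip1 binds the tail of the cannabinoid receptor CB1 and is best known from brain. Its signal was 596, 751 and 335 units on the shExosc8 arrays, against 8.52, 11.7 and 8.03 units on the shControl arrays, a bound of 18.5-fold. The signal of Ccn4, a secreted matrix protein of the Wnt pathway also called Wisp1, was 602, 719 and 268 units in shExosc8 and 5.90, 5.89 and 8.83 units in shControl (17.02-fold). For both genes every control array was far under the lowest detected signal, where values may be surrogates. In both, shExosc8 replicate 3 was the lowest of its group. Ephx4, of the epoxide hydrolase family, read 464, 514 and 133 units after knockdown of Exosc8 and 5.99, 6.05 and 8.87 units in shControl, a bound of 11.04-fold. Bnc2, a zinc finger protein of the basonuclin family known from skin and connective tissue cells, read 387, 443 and 162 units on the shExosc8 arrays, against 15.4, 24.2 and 17.1 units on the shControl arrays (10.6-fold). In the plot of the 20 largest bounds these 4 genes sit at the top, and replicate 3 is left of the other shExosc8 arrays for 19 of the 20 genes.

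**Figure D1:**
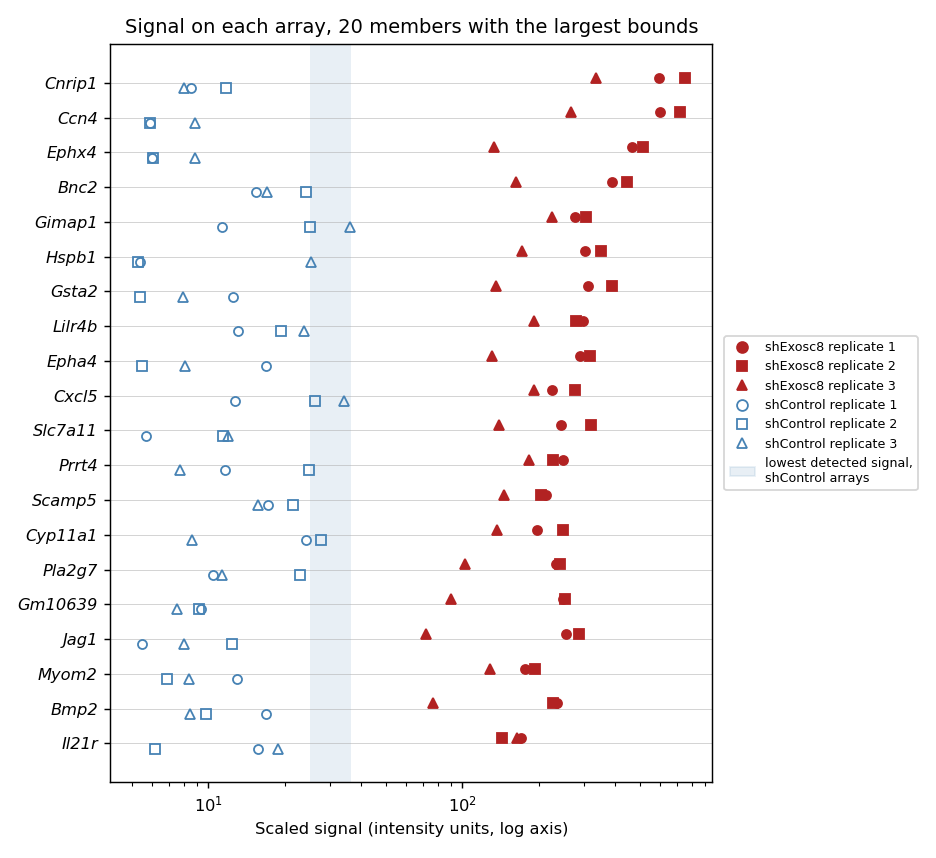
Scaled signal (horizontal log axis, intensity units) of the 20 members with the largest bounds, 1 row per gene; filled red symbols are the 3 shExosc8 arrays, open blue symbols the 3 shControl arrays, and the band spans the lowest signals of detected probes on the shControl arrays. Cnrip1 lies between 335 and 751 units on the shExosc8 arrays and between 8.03 and 11.7 units on the shControl arrays.

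Promoter sequence was not used to choose the members. RefSeq promoters, running from 250 bases before to 50 bases after a transcript's start on GRCm38.p6, were available for 55 of the 68 members. Bmp2, Bst1, Ccn4, Cd69, Csgalnact1, Cxcl5, Dbndd1, Kctd1, Ms4a6d, Myom2, Scnn1a, Slc25a27 and Thbd had no match. CpG dinucleotides, which cluster at the promoters of broadly active genes, were counted relative to the number that base composition predicts. The median of this ratio was 0.456 for the members, 0.769 for coding genes detected on all 6 arrays, 0.619 for all coding genes and 0.260 for genes detected on no array. A ratio of at least 0.6 was found in 41.8% of member promoters, against 71.8%, 51.7% and 22.1% in those 3 sets. The members thus lay between genes always detected and genes never detected, and they spread over the whole range.

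The last 100 bases before the start are shown for the 5 largest bounds with a matched promoter, because they include CpG-poor and CpG-rich promoters; CpG dinucleotides are in capitals, 5′ to 3′ on the gene's strand.
Cnrip1 (chr11:17051759-17051858, plus strand): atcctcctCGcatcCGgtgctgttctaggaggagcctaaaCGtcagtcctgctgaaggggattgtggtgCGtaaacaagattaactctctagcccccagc
Ephx4 (chr5:107403413-107403512, plus strand): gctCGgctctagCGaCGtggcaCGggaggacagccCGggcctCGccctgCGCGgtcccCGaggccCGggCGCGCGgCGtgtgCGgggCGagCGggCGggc
Bnc2 (chr4:84610198-84610297, minus strand): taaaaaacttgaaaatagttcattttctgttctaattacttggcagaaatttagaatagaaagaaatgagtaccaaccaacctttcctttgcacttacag
Gimap1 (chr6:48738947-48739046, plus strand): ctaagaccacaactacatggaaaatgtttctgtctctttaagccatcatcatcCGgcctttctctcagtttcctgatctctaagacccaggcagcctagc
Hspb1 (chr5:135887819-135887918, plus strand): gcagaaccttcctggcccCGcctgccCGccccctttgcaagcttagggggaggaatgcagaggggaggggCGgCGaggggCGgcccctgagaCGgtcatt
The Ephx4 stretch holds 18 CpG dinucleotides and the Hspb1 stretch 6, whereas Cnrip1 has 4, Gimap1 has 1 and Bnc2 has 0. Over the whole promoter the ratio was 1.02 for Ephx4, 0.549 for Hspb1, 0.357 for Cnrip1, 0.258 for Gimap1 and 0 for Bnc2. Large bounds were therefore seen with CpG-dense and with CpG-free stretches before the annotated start, the CpG-free one being that of Bnc2 alone. Whether an annotated start was the one used in these cells was not tested. The Bnc2 stretch ends in a run rich in c and t followed by ag, as the ends of introns do. It may therefore not be a promoter, which was not tested either.

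**Figure D2:**
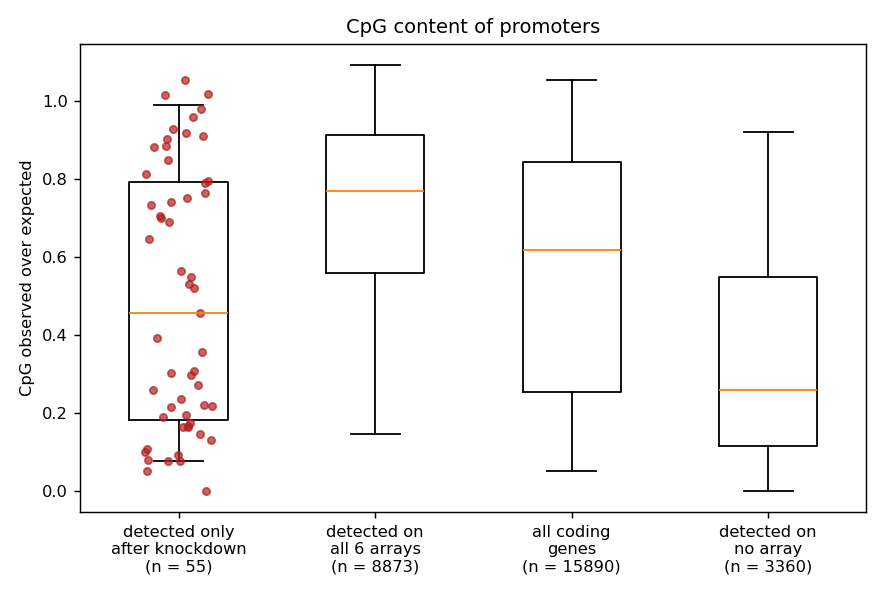
Ratio of observed to expected CpG dinucleotides (vertical axis) in promoters of the members (red points, 1 per gene) and of 3 sets of coding genes; boxes show the median and quartiles, whiskers the 5th and 95th percentiles. The member median of 0.456 lies between 0.769 for genes detected on all 6 arrays and 0.260 for genes detected on none, and member points reach both ends of the axis.

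Each of 9 short motifs was searched on both strands and its share compared with that in all 15890 coding promoters; no motif lies within another. TGANTCA, a loose form of the AP-1 motif with any base at N, was in 7 member promoters (12.7%), against 7.04% of all promoters. Dimers of Fos and Jun proteins best bind TGAGTCA and TGACTCA, whose share was not counted apart. GAAANNGAA, a motif of interferon regulatory factors, was also in 7 (12.7%), against 8.09%. The ETS motif CCGGAAG was in 1 (1.82%, Il20ra), against 12.5%. The GATA motif, searched as GATAA, was in 29.1% of member promoters and 22.0% of all promoters. The TATA box, searched as TATAAA, was in 16.4% and 12.7% of them. The CCAAT box was in 38.2% and 38.8%. The GC box, searched as GGGCGG, was in 41.8% and 49.5%. Neither the cyclic AMP response element TGACGTCA (2.48% of all promoters) nor a core of the neuronal repressor element, searched as TTCAGCACC (0.403%), was in any member promoter. Promoters of genes detected on no array held the loose AP-1 motif in 11.2% and the ETS motif in 2.89%. For both, the members lay nearer to undetected genes than to genes detected on all 6 arrays (4.85% and 19.3%). The member counts of 7 and 1 are small, and CCGGAAG holds a CpG, so its share is not separate from the CpG content.

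The 7 stretches with the loose AP-1 motif are printed with the match in capitals and up to 20 bases on either side, ending at the start of the transcript. In Cybb the 3 matches to GAAANNGAA or its reverse complement are in capitals as well.
Ccdc160 (chrX:52790958-52791004, plus strand): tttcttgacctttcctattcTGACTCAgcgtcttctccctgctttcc
Cybb (chrX:9469325-9469511, minus strand): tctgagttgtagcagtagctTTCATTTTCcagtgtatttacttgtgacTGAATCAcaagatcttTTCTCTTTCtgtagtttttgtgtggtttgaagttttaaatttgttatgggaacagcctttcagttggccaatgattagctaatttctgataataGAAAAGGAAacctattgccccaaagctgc
Il20ra (chr10:19712403-19712449, plus strand): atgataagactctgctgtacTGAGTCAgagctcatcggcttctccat
Il6 (chr5:30012864-30012891, plus strand): cTGAGTCActtttaaagaaaaaaaagaa
Mctp1 (chr13:76579511-76579557, plus strand): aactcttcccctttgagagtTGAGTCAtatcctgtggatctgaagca
Tmem37 (chr1:120073857-120073903, minus strand): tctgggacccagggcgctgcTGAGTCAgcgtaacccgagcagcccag
Trem2 (chr17:48346372-48346400, plus strand): ctcacgcccttctccctcctTGAATCAca
These 7 genes differ in role: a cytokine (Il6), a cytokine receptor (Il20ra), a lipid-sensing receptor (Trem2), an oxidase subunit (Cybb) and the membrane or coiled-coil proteins Mctp1, Tmem37 and Ccdc160. In Cybb and Trem2 the match reads TGAATCA, which is not the preferred site of Fos and Jun. A match of letters is a description of the sequence and does not show that a factor binds there.

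Secreted and membrane-bound signals were 5 members with a median bound of 6.08-fold. Jag1, a membrane-bound ligand of Notch receptors, read 257, 287 and 71.7 units in shExosc8 and 5.48, 12.3 and 8.05 units in shControl (6.08-fold). Bmp2, a secreted ligand of the TGF-beta family that drives bone formation, read 237, 226 and 76.6 units after knockdown of Exosc8 and 16.9, 9.75 and 8.49 units in shControl (5.59-fold). In both, shExosc8 replicate 3 stood far below replicates 1 and 2. Cxcl5, a chemokine that attracts neutrophils, had 225, 277 and 192 units on the shExosc8 arrays, against 12.7, 26.2 and 34.2 units on the shControl arrays (7.87-fold), and its highest control lay just under the lowest signal counted as detected on that array. Il6, a cytokine of the acute inflammatory response, had 115, 139 and 78.1 units in shExosc8 and 5.92, 6.11 and 8.67 units in shControl (3.76-fold). Cxcl5 and Il6 were the only members among 99 chemokine and cytokine genes on the array; of the 31 measured, members included, 16 rose and 1 fell by limma. The Notch, TGF-beta and BMP, and Wnt lists gave 1 member each, with Jag1 of 30 Notch genes (4 of 18 measured rose, 1 fell), Bmp2 of 71 TGF-beta and BMP genes (10 of 38 rose, 6 fell) and Ccn4 of 63 Wnt genes (2 of 14 rose, 2 fell). Genes of NF-kappaB and innate signalling held 1 member, Casp1, among 62 (21 of 39 rose, 1 fell). No member was among 74 interferon response genes (23 of 49 measured rose, 3 fell), 51 AP-1 and immediate early genes (21 of 41 rose, 1 fell) or 47 p53 target and cell death genes (10 of 41 rose, 4 fell).

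Receptors for signals and matrix numbered 8, with a median bound of 4.01-fold. Epha4, a receptor tyrosine kinase for ephrins, gave 292, 317 and 130.3 units after knockdown of Exosc8 and 16.9, 5.48 and 8.08 units in shControl, a bound of 8.00-fold. It was the single member among 116 growth factor and receptor tyrosine kinase genes, of which 15 of 48 measured rose and 4 fell. Il21r, the receptor chain for interleukin 21 on lymphocytes, gave 170.2, 143 and 164 units on the shExosc8 arrays, against 15.6, 6.14 and 18.8 units on the shControl arrays (5.53-fold). Its 3 shExosc8 arrays lay close together, unlike those of Epha4. Il20ra, a receptor chain of the interleukin 20 family best known from epithelium, gave 93.6, 119 and 62.2 units in shExosc8 and 9.54, 23.9 and 9.30 units in shControl (3.09-fold). These were the 2 members among 93 cytokine and chemokine receptors, of which 22 of 55 measured rose and 7 fell.

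Of the other 5 receptors, Grm6, Itga8 and Thbd are best known from solid tissues, and Neo1 and Gprc5b were not assigned to one. Grm6 is the glutamate receptor of retinal ON bipolar cells, and it read 139, 201 and 109.7 units after knockdown of Exosc8 and 9.12, 18.3 and 38.8 units in shControl (4.96-fold). Neo1, or neogenin, a receptor for netrins and repulsive guidance molecules, read 176, 259.9 and 61.8 units on the shExosc8 arrays, against 13.9, 8.21 and 24.02 units on the shControl arrays (4.93-fold). Control replicate 3 of Grm6 was near the limit of detection, and shExosc8 replicate 3 of Neo1 was far below replicates 1 and 2. Gprc5b, an orphan G protein-coupled receptor, read 94.7, 85.5 and 63.6 units in shExosc8 and 13.8, 23.8 and 29.2 units in shControl (2.80-fold). Itga8, an integrin chain of kidney and smooth muscle, read 77.9, 71.5 and 51.9 units after knockdown of Exosc8 and 21.4, 19.9 and 24.7 units in shControl (2.31-fold). Thbd, thrombomodulin of the vessel wall, read 78.97, 56.4 and 59.8 units on the shExosc8 arrays, against 9.90, 6.62 and 11.1 units on the shControl arrays (2.24-fold), the smallest bound of the set. All 3 bounds were under the median of the set.

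Enzymes of lipid, steroid and detoxification reactions numbered 8, with a median bound of 6.24-fold, and shExosc8 replicate 3 was the lowest of its group in all 8. Besides Ephx4, the largest bound was that of Gsta2, a glutathione S-transferase of the alpha class abundant in liver, which had 311, 388 and 136 units in shExosc8 and 12.5, 5.40 and 7.97 units in shControl (8.86-fold). Gm10639, a gene near it on chromosome 9, was placed in this group by hand. Its signal was 248, 253 and 90.1 units after knockdown of Exosc8 and 9.31, 9.17 and 7.51 units in shControl (6.22-fold). Alpha-class transferase genes have near-identical copies, whose probes can share signal. Cyp11a1 splits the side chain of cholesterol at the start of steroid synthesis and is best known from adrenal gland and gonad. Its signal was 197, 249 and 136 units on the shExosc8 arrays, against 24.2, 27.7 and 8.61 units on the shControl arrays (6.36-fold). Akr1b7, an aldo-keto reductase of adrenal gland and vas deferens, had 142, 144 and 59.1 units in shExosc8 and 6.17, 29.9 and 9.43 units in shControl (3.51-fold). Cytochrome P450 and conjugating enzymes held these 3 named members (Gsta2, Cyp11a1 and Akr1b7) among 233 genes, 1.29% against 0.34% of all coding genes, and 26 of 77 measured rose while 8 fell.

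Phospholipid enzymes were also among them. Pla2g7, a secreted phospholipase that inactivates platelet-activating factor and is made by macrophages, read 234, 242 and 102 units after knockdown of Exosc8 and 10.4, 22.9 and 11.3 units in shControl (6.26-fold). Pla2g10, a secreted phospholipase that releases arachidonic acid, read 114, 153 and 76.5 units on the shExosc8 arrays, against 12.6, 12.4 and 13.9 units on the shControl arrays (3.84-fold). Plpp3, which removes phosphate from lysophosphatidic acid, read 144, 161 and 98.5 units in shExosc8 and 5.48, 20.8 and 25.6 units in shControl (4.59-fold). In each, the highest control stayed well under the lowest shExosc8 array. Ephx4 and Pla2g10 were the members among 51 genes of prostaglandin, leukotriene and nitric oxide pathways, of which 16 of 29 measured rose.

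Immune cell and host defence proteins formed the largest role group, 15 members with a median bound of 3.14-fold. Gimap1 and Gimap5 are GTPases that lymphocytes need to survive, and their probes lie 10092 bases apart on chromosome 6. Gimap1 read 278, 306 and 225 units after knockdown of Exosc8 and 11.3, 25.1 and 36.1 units in shControl (9.33-fold). Gimap5 read 119.6, 156 and 98.4 units on the shExosc8 arrays, against 13.2, 19.9 and 10.8 units on the shControl arrays (4.27-fold). In both, shExosc8 replicate 3 was the lowest of its group, at 0.770 and 0.720 of the mean of replicates 1 and 2. Lilr4b, an immunoglobulin-like receptor of myeloid and mast cells, read 298, 279.9 and 191 units in shExosc8 and 13.1, 19.3 and 23.7 units in shControl (8.78-fold). Cd69, a lectin that appears early on activated lymphocytes, read 148, 158 and 117 units after knockdown of Exosc8 and 9.23, 5.86 and 8.61 units in shControl (4.88-fold). All 3 Cd69 control values were far under the lowest detected signal.

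Several belong to myeloid cells. Clec9a, a lectin of dendritic cells that recognises dead cells, had 121, 172 and 86.1 units on the shExosc8 arrays, against 5.44, 10.3 and 25.1 units on the shControl arrays (4.24-fold). Trem2, a lipid-sensing receptor of macrophages, microglia and osteoclasts, had 161, 129 and 75.2 units in shExosc8 and 25.3, 18.4 and 35.6 units in shControl (4.05-fold). These were the 2 members among 53 macrophage and dendritic cell genes on the array (3.77%), of which 22 were measured, 15 rose and 1 fell. Casp1, the protease that inflammasomes activate to mature interleukin 1, had 80.8, 80.3 and 117 units after knockdown of Exosc8 and 16.97, 27.5 and 11.5 units in shControl (3.09-fold). Cybb, the membrane subunit of the phagocyte NADPH oxidase, had 62.6, 53.7 and 94.1 units on the shExosc8 arrays, against 7.75, 22.99 and 16.1 units on the shControl arrays (2.38-fold). In Casp1 and Cybb shExosc8 replicate 3 was the highest array, the reverse of most members. Ly86, the partner of a Toll-like receptor relative on B cells and macrophages, had 64.3, 60.4 and 86.5 units in shExosc8 and 20.8, 27.4 and 17.98 units in shControl (2.36-fold). Clec4a1, a lectin of myeloid cells, had 113, 84.8 and 121 units after knockdown of Exosc8 and 31.01, 30.2 and 41.7 units in shControl (3.097-fold). Replicate 3 was again the highest in both.

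The remaining 5 immune members had bounds between 2.71- and 4.84-fold. They were Jaml, an adhesion molecule of leukocytes, Wfdc17, a small secreted protein of macrophages, Bst1, an ectoenzyme of myeloid cells, Adgre4, an adhesion receptor of macrophages, and Ms4a6d, a membrane protein of myeloid cells. Jaml read 144, 172 and 115 units on the shExosc8 arrays, against 16.8, 26.9 and 20.6 units on the shControl arrays. Ms4a6d read 82.6, 81.6 and 69.6 units in shExosc8 and 5.27, 24.2 and 16.7 units in shControl. No control array of either gene came near its shExosc8 arrays. By the start of their symbols, 7 members were immunoglobulin-like or lectin receptors or related surface proteins (Lilr4b, Cd69, Clec9a, Trem2, Clec4a1, Ms4a6d and Ly86), of 306 such genes on the array, 2.29% against 0.34% of all coding genes. The family rule was set with the members known, so that share is a description.

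Marker lists of many cell types, white blood cells among them, differed in summed signal between the groups. The summed signal of 51 macrophage and dendritic cell genes other than members ranged from 125627 to 177569 units on the shExosc8 arrays and from 93348 to 114440 units on the shControl arrays. For 43 neutrophil and monocyte genes it was 466650 to 578615 units, against 161201 to 188873 units, with 35 of 39 measured genes called higher by limma. For 40 mast cell, basophil and eosinophil genes other than members it was 186880 to 240736 units, against 71695 to 87223 units, with 18 of 28 higher and 1 lower. For 47 megakaryocyte and platelet genes it was 539209 to 804370 units, against 97764 to 123933 units, with 41 of 45 higher. T and NK cell genes (7727 to 8716 units, against 6210 to 6942 units) differed less, and B cell genes overlapped (2258 to 3342 units, against 2172 to 2999 units). Sums were also higher without overlap in lists of other cell types. Neuron and synapse genes summed to 37518 to 54386 units on the shExosc8 arrays, against 18714 to 26379 units on the shControl arrays, with 11 of 37 measured genes higher and 2 lower. Late erythroid genes summed to 3124860 to 4545730 units, against 1945460 to 2555810 units, with 18 of 45 higher and 2 lower. The sums of the endothelial, fibroblast, hepatocyte, glia, muscle, germ cell and retina lists were also higher without overlap. Those of the early embryo and of the pancreas, gut and kidney lists were lower without overlap, and those of the keratinocyte, bone and adipocyte lists overlapped. Bright genes weigh most in a sum, so it does not show that a list rose as a whole. Limma called 4 of 14 measured endothelial genes higher and 2 lower, and 6 of 19 fibroblast genes higher and 2 lower. It called 5 of 16 hepatocyte and 4 of 16 glia genes higher and 0 lower. In muscle 8 of 21 were higher and 2 lower, in germ cell 4 of 16 and 4, and in retina 9 of 22 and 2. Among defining markers, Itgax of dendritic cells was detected on no array, C1qa of macrophages and Xcr1 of dendritic cells on 0 shExosc8 arrays and 1 shControl array, and Mrc1 of macrophages on 1 shExosc8 array and 0 shControl arrays. The macrophage receptor Adgre1 was detected on 3 shExosc8 and 2 shControl arrays, and the growth factor receptor Csf1r on all 6, with a log2 difference of 1.08 ± 0.22 (SE, limma adjusted p = 0.0163). Also detected on all 6 arrays were the dendritic cell factor Zbtb46, with a log2 difference of 1.12 ± 0.19 (SE, limma adjusted p = 0.00902), and Flt3, a receptor of dendritic cells and early progenitors, with 1.85 ± 0.33 (SE, limma adjusted p = 0.0112). The macrophage protein Cd68 had 0.50 ± 0.13 (SE, limma adjusted p = 0.0369), while Marco of macrophages, at -0.21 ± 0.26 (SE, limma adjusted p = 0.55), and Cd3e of T cells, at 0.19 ± 0.11 (SE, limma adjusted p = 0.209), did not pass. The part of such cells in the members' signals was not tested.

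Across the 20 cell type lists, 7 members were found, and the plot of list detection shows how each list was divided. The mast cell list held Cyp11a1 and Il6, the fibroblast list Ccn4, the muscle list Myom2 and the retina list Grm6. In the megakaryocyte list 41 of 47 genes, and in the neutrophil and monocyte list 35 of 43, were detected on all 6 arrays, so few of their genes could have entered the set. No member was in the lists of endothelial, hepatocyte, neuron, glia, keratinocyte, germ cell, early embryo, bone, adipocyte or gut and kidney genes, in which between 4 of 20 genes (adipocyte) and 28 of 65 (germ cell) were detected on no array.

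**Figure D3:**
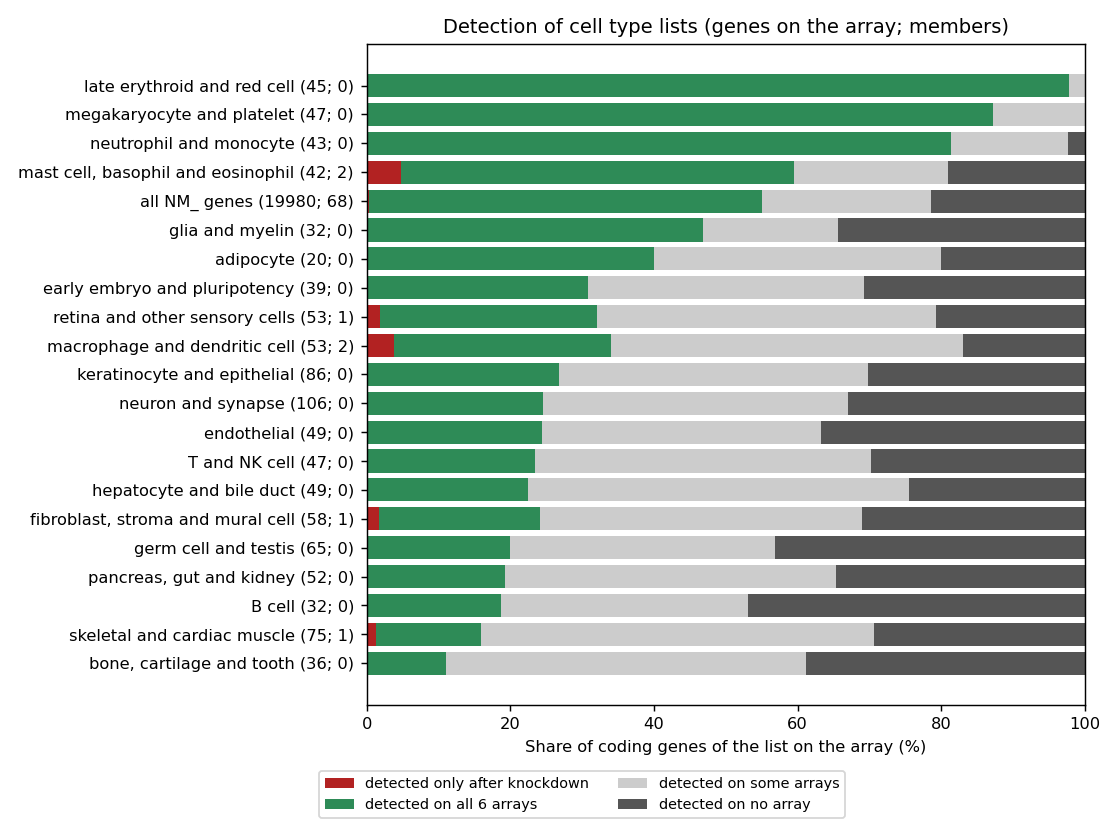
Share of the coding genes of each cell type list on the array (horizontal axis, %) that were detected only after knockdown (red), on all 6 arrays (green), on some arrays (light grey) or on no array (dark grey); the first number after a list's name is its genes on the array and the second its members. The late erythroid list is detected almost whole with 44 of 45 genes on all 6 arrays, and the red segments are largest in the mast cell list (2 of 42) and the macrophage and dendritic cell list (2 of 53).

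Intracellular regulators numbered 6, led by Cnrip1 and Bnc2. Lrrk2, a large kinase linked to endosomes and lysosomes, read 118, 124 and 95.7 units after knockdown of Exosc8 and 10.6, 23.7 and 8.91 units in shControl (3.91-fold). Rbm47, an RNA-binding protein of RNA editing and splicing, read 73.4, 77.4 and 57.8 units on the shExosc8 arrays, against 22.7, 22.7 and 27.8 units on the shControl arrays (2.41-fold). The kinase Cdk18 and the repressor Kctd1 had bounds of 2.73- and 2.56-fold, with 1 control array each close to the limit of detection. No member belonged to the families of homeobox and other developmental regulators (288 genes), zinc finger proteins named Zfp, Zbtb or alike (451) or kinases and phosphatases with symbols such as Map, Camk, Stk or Dusp (304). That rule goes by the start of a symbol, so the kinases Lrrk2, Cdk18, Epha4 and Pkdcc lie outside it.

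Proteins of structure, trafficking and stress numbered 10, with a median bound of 3.60-fold. Hspb1, a small heat shock protein that holds unfolded proteins, had 305, 353 and 172 units in shExosc8 and 5.40, 5.27 and 25.2 units in shControl (9.23-fold). Scamp5, a membrane protein of secretory vesicles in neurons, had 214, 205 and 146 units after knockdown of Exosc8 and 17.1, 21.6 and 15.7 units in shControl (6.48-fold). Myom2, which links myosin filaments at the M-band of striated muscle, had 177, 193 and 128 units on the shExosc8 arrays, against 12.98, 6.85 and 8.37 units on the shControl arrays (5.71-fold). The control arrays lay well below in all 3 genes, with control replicate 3 of Hspb1 above its other controls. Mctp1, a calcium-binding membrane protein, had 160.1, 180.3 and 112 units in shExosc8 and 6.75, 6.70 and 9.61 units in shControl (5.16-fold). Fhl2, a LIM domain protein of the heart, had 96.4, 115 and 82.8 units after knockdown of Exosc8 and 5.44, 23.6 and 7.79 units in shControl (3.39-fold). Dnah11, a dynein of motile cilia, had 77.5, 134 and 53.5 units on the shExosc8 arrays, against 19.6, 24.8 and 11.2 units on the shControl arrays (2.87-fold). Dnah11 was near the limit of detection on shExosc8 replicate 3. The others were the tetraspanin Tspan2 (3.66-fold), the endoplasmic reticulum protein Ckap4 (3.54-fold), the adhesion scaffold Nedd9 (2.86-fold) and the Rac activator Dock1 (2.38-fold).

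Channels and transporters were 5 members with the lowest median bound of the role groups, 2.74-fold. Slc7a11, which imports cystine for glutathione synthesis and is a target of the ATF4 stress response, stood apart from them with 246, 321 and 139 units in shExosc8 and 5.65, 11.4 and 11.95 units in shControl (7.75-fold). Among 43 genes of the unfolded protein and ATF4 response it was the single member, as 37 of them were detected on all 6 arrays; 23 of 40 measured rose and 2 fell. Scnn1a, a subunit of the epithelial sodium channel, had 65.2, 56.9 and 127 units after knockdown of Exosc8 and 11.5, 16.4 and 40.4 units in shControl (2.62-fold). Here shExosc8 replicate 3 was the highest array, and control replicate 3 came nearest to the other shExosc8 arrays. Aqp9, a channel for water and glycerol, had 86.4, 72.2 and 83.3 units on the shExosc8 arrays, against 22.3, 21.5 and 39.2 units on the shControl arrays (2.74-fold). The mitochondrial carrier Slc25a27 (2.71-fold) and the calcium channel relative Tmem37 (3.62-fold) completed the group.

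Of the 4 genes for glycans and matrix, B4galnt2, which adds the terminal sugar of a blood group antigen in gut, read 129.7, 162 and 116 units in shExosc8 and 6.18, 27.7 and 10.2 units in shControl (4.55-fold). Csgalnact1, an enzyme that starts chondroitin sulfate chains, read 113, 139.5 and 72.9 units after knockdown of Exosc8 and 16.7, 22.6 and 17.03 units in shControl (3.65-fold). Pkdcc, a secreted tyrosine kinase of matrix proteins, had a bound of 3.43-fold. Gpc3, a heparan sulfate proteoglycan of fetal liver and other embryonic tissue, read 71.97, 87.2 and 97.4 units on the shExosc8 arrays, against 18.4, 28.1 and 22.8 units on the shControl arrays (2.85-fold). Unlike the other 3, Gpc3 was highest on shExosc8 replicate 3.

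For 7 members no role is given here. Prrt4 read 249, 227 and 184 units in shExosc8 and 11.6, 24.99 and 7.73 units in shControl (7.61-fold), the largest bound of this group. Ccdc160 read 163, 173 and 118 units after knockdown of Exosc8 and 7.29, 5.25 and 36.7 units in shControl (5.20-fold), with control replicate 3 far above the other controls. Fam43a, Kbtbd12, BC016579, Dbndd1 and Lonrf3 had bounds of 4.92-, 4.01-, 3.59-, 3.27- and 2.42-fold.

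**Figure D4:**
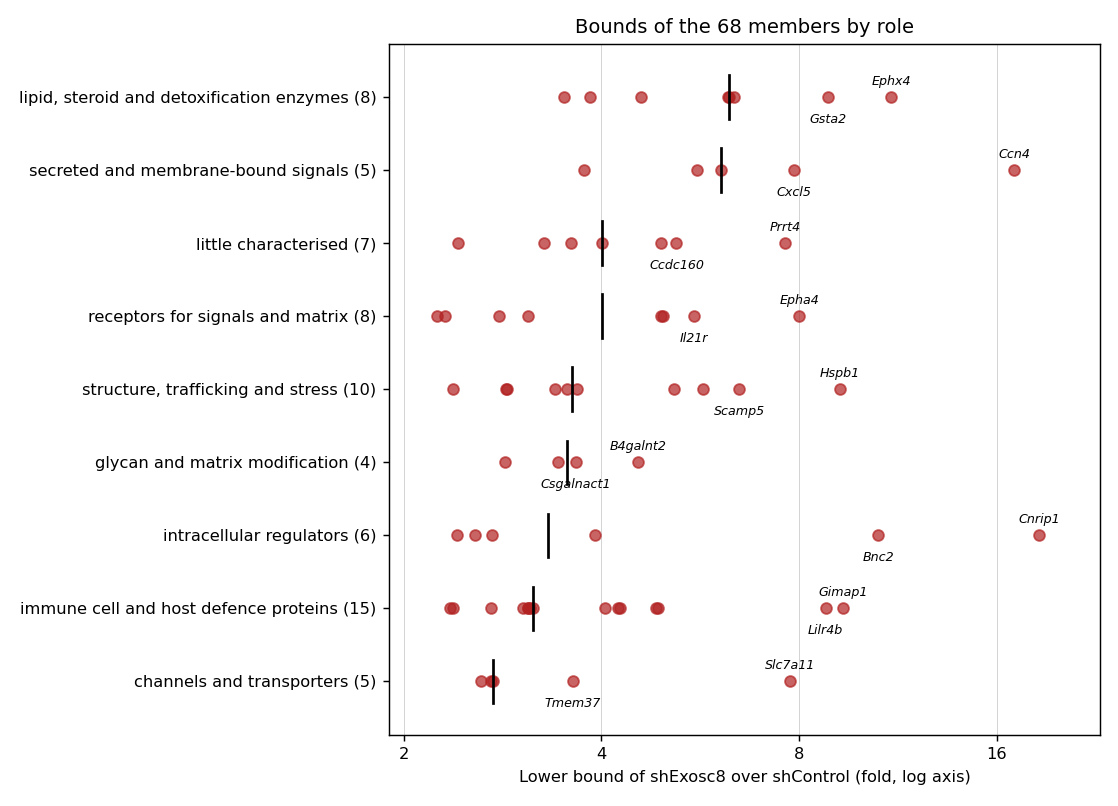
Lower bound of the fold difference, shExosc8 over shControl (horizontal log axis), for each of the 68 members (points) by role, with the number of members in brackets; black bars are medians and the 2 largest of each role are named. Medians run from 2.74-fold for channels and transporters to 6.24-fold for lipid, steroid and detoxification enzymes, and the ranges of the roles overlap.

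The members' median spread among the shExosc8 arrays was wider than that of all names. Over the members the median signal was 120.4, 150.1 and 86.3 units on shExosc8 replicates 1, 2 and 3, against 12.02, 20.03 and 15.8 units on shControl replicates 1, 2 and 3. Replicate 3 was the lowest shExosc8 array for 54 members and the highest for 6 (Clec4a1, Casp1, Gpc3, Scnn1a, Cybb and Ly86), and replicate 2 was the highest for 47. The ratio of replicate 3 to the mean of replicates 1 and 2 had a median of 0.682 over the members, between 0.264 (Jag1) and 2.09 (Scnn1a), and 0.966 over all names tested. The SD of the log2 signal among the shExosc8 arrays had a median of 0.378 for members and 0.208 for all names. Replicate 3 was also the shExosc8 array with the most Exosc8 signal and the fewest spots above background, and the part of either in this spread was not tested.

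By role, this ratio had a median of 0.407 for the 5 signals and 0.421 for the 8 lipid, steroid and detoxification enzymes, in which replicate 3 was the lowest for every member. For the 5 channels and transporters the median was 0.994, and for the 15 immune and host defence proteins 0.766. By best-known lineage it was 0.766 for the 17 white blood cell members, 4 of which were highest on replicate 3, 0.675 for the 16 members of other tissues and 0.630 for the 35 broad or unassigned members. Median bounds of the lineages were 4.05-, 4.75- and 3.76-fold in the same order. Roles and lineages were assigned after the members were known, so these are descriptions.

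**Figure D5:**
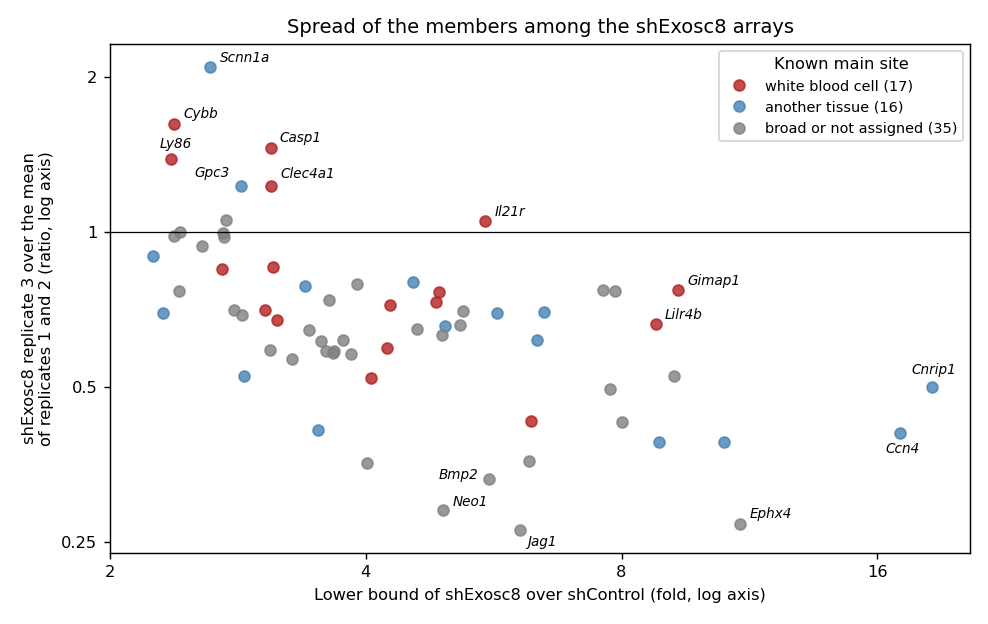
Ratio of the signal on shExosc8 replicate 3 to the mean of shExosc8 replicates 1 and 2 (vertical log axis) against the lower bound of shExosc8 over shControl (horizontal log axis), 1 point per member, coloured by best-known lineage. Most points lie below 1, down to 0.264 for Jag1, and the 6 genes highest on replicate 3 (Scnn1a, Cybb, Casp1, Ly86, Clec4a1 and Gpc3) lie at the top, up to 2.09.

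Genes beside the members on the chromosome were compared next. Probe positions on mm9 gave 80 nearest coding neighbours within 100 kb of a member, 47 of them measured. Of these, 21 were called higher (44.7%) and 7 lower (14.9%), with a median log2 difference of 0.23. For the neighbours of all coding genes, 15.8% were higher and 16.7% lower, with a median of -0.12. Some of the higher neighbours are relatives of the member in the same gene cluster, and 2 of the 21 are members themselves (Gimap1 and Gimap5). No test was made, because neighbours were measured in the same comparison that chose the members.

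Several pairs show the pattern in blood cell genes, named after their values were seen. The platelet chemokine Ppbp, 8480 bases from Cxcl5, read 14443, 15918 and 12471 units on the shExosc8 arrays, against 1449, 1466 and 2080 units on the shControl arrays. Clec1b, a lectin of platelets 18888 bases from Clec9a, had a log2 difference of 4.12 ± 0.24 (SE). Casp4, an inflammatory caspase next to Casp1, had 3.1 ± 0.27 (SE), and Cd93, a lectin-like receptor next to Thbd, 2.58 ± 0.23 (SE). Treml1 of platelets, 14828 bases from Trem2, had 3.52, and Lilrb4a, 12953 bases from Lilr4b, had 3.66 ± 0.21 (SE). Each of these neighbours passed the limma threshold. Lilrb4a and Lilr4b are close copies whose probes can share signal. By chromosome, 9 of the 1079 placed coding genes on chromosome 6 were members (0.834%), among them Gimap1, Gimap5, Clec9a, Clec4a1 and Cd69, and 8 of 1151 on chromosome 9 (0.695%), while chromosome 14 held 0 of 706.

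Members close to the edge of the rule show how it cut. Itga8 had its lowest shExosc8 signal 1.05 times above the lowest detected signal of that array, Dnah11 1.08 times and Cybb 1.14 times. Just outside, 105 genes were detected on all shExosc8 arrays and on exactly 1 shControl array, which was replicate 2 for 95 of them. The difference was largest for Mycn, a Myc family transcription factor, with 2477, 2706 and 1419 units on the shExosc8 arrays, against 19.7, 35.9 and 37.2 units on the shControl arrays. Nyx, a protein of retinal bipolar cells, had 1083, 1453 and 503 units, against 21.4, 83.6 and 8.11 units. Cx3cl1, a membrane-bound chemokine, had 615, 639 and 189 units, against 5.34, 50.2 and 7.73 units. All 3 stayed out because shControl replicate 2 carried the flag.

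On the other side, 66 genes were detected on 2 shExosc8 arrays and on no shControl array, and for 55 of them the missing array was shExosc8 replicate 3. H2-Eb2, a class II histocompatibility gene, had 167, 387 and 30.1 units on the shExosc8 arrays, against 5.24, 5.06 and 7.45 units on the shControl arrays. Gipc2, a scaffold protein, had 131, 205 and 41.9 units, against 5.47, 5.43 and 7.97 units. Lrtm2, of the leucine-rich repeat proteins, had 126, 150.5 and 34.4 units, against 5.33, 5.23 and 7.68 units. A further 24 genes had a probe that met the flags but were left out because another of their probes was detected on a shControl array.

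How firmly a gene is absent from the controls or present after knockdown depends on its probes. Only 13 members had more than 1 probe, and 55 rested on a single probe. Another probe was detected on all shExosc8 arrays for 1 of the 13 (Ccn4) and on any for 4 (Ccn4, Gm10639, Mctp1 and Tspan2). For the other 9 the remaining probes were detected on none of the 6 arrays. These were Pla2g7, Kbtbd12, Lrrk2, Ckap4, Bst1, Gpc3, Gprc5b, Lonrf3 and Rbm47, whose detection after knockdown was not borne out by their other probes.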

How the data were processed

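RNA of 6 mouse fetal liver erythroid samples was labelled with Cy3 and hybridised to 1-colour Agilent arrays. Per the file headers, the deposited intensity values had a spatial background subtracted and signals near 0 replaced by surrogates in Agilent Feature Extraction 10.7.3.1. The flags for spots well above background and for outliers are also from that software, per the file headers. Probe coordinates in the files are on mm9. The tool limma is named in the submitters' processing notes. The deposited table of the series was not used.

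Control spots and spots with outlier flags were left out, and 55660 of 55681 probes had a usable spot. Names of 27495 probes came from a RefSeq table (GRCm38.p6) by accession, and the rest kept their name or symbol. A probe with several spots counted as detected on shExosc8 arrays when every spot carried the flag, and on shControl arrays when any did. The log2 intensity was scaled by each array's 75th percentile over 21605 probes detected on all 6 arrays. A probe had to be detected on every array of 1 group or of both (24826 probes), the one with the highest mean stood for a gene, and 18219 names were tested with limma 3.58.1 in R 4.3.3 (two-sided, Benjamini-Hochberg, threshold 0.05, no block). The fit was tested on simulated data. CpG ratio, motifs and neighbours within 100 kb were counted in python 3.11.15.

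The members, 20 cell type lists, 12 pathway lists and 16 symbol families were chosen with earlier results of these data known, and roles and lineages were assigned by hand from textbook knowledge. Genes were named by rule: the 20 largest bounds, up to 5 members per list or family, and the 3 members nearest the edge. Just outside the rule, the 3 genes with the largest difference on each side were named. Exosc8 was named as the target of the hairpin. The other members are named to account for every member, after their values were seen. Neighbours and defining markers that are not members fall under none of these rules. Replicate numbers come from the titles. Same-numbered arrays deviated together at r = 0.036, 0.218 and 0.303, so the numbers do not pair the samples in every case. The number of arrays limits the precision. Alternatives covered the scaling, background correction, flag, filters, blocks and each array left out.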

Additional observations from a re-analysis of the deposited data

How the results depend on the processing

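The set held 68 genes and its size depended on single arrays. With 1 array left out it ranged from 70 (without shControl replicate 3) to 172 (without shControl replicate 2). Leaving out an array can only relax the rule, so all 68 members were bound to be kept each time. The scanner software also set a weaker flag, for a positive and significant signal. With it in place of the flag for well above background the set held 23 genes, 2 of them shared with the 68. Where every spot well above background also carries the weaker flag, a member can leave the set only if a shControl array carries it. That was not checked spot by spot. Not detected here thus means not well above background, and does not mean without signal. Joining genes by the name in the files, or by symbol, synonym or name (an alternative added after seeing the data), keeping outlier spots, and counting a probe by the majority of its spots gave 68 or 69 genes. Ignoring a gene's other probes gave 92, and asking also for 2 times every control signal gave 63.

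Over all names limma called 5463, against 9164 with no normalization between arrays, 1820 with no filter on dim probes, 544 with the slide column as a block and 2359 to 8418 with 1 array left out. The lowest count came without shExosc8 replicate 1 and the highest without shExosc8 replicate 3. Over all names 501 of 18219 were called higher with the slide column as a block and 2678 of 18219 with normexp and quantile normalization. Rises numbered 1450 of 34950 with no filter, and 1665 of 18264 to 4256 of 18760 with 1 array left out. The members' own calls were all but fixed by the rule, so they are a description. Of the members, 44 were called with the slide column as a block. In that fit 2 of the 6 arrays no longer bear on the group difference. With normexp and quantile normalization 66 members were called, with no filter 58, and with 1 array left out 63 to 67. Scnn1a lost its call in 5 of those 6 fits, Akr1b7 in 4, Ccdc160, Kctd1 and Ms4a6d in 3 each and Dock1 in 1. With the replicate number as a block 5636 names and all 68 members were called. The numbers do not pair the samples in every case. shExosc8 replicate 1 deviated more with shControl replicate 2 (r = 0.166) than with shControl replicate 1 (r = 0.036). For shExosc8 replicates 2 and 3 the same-numbered shControl array gave the highest r (0.218 and 0.303).

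The median bound of 3.87-fold became 2.74-fold with no normalization between arrays and ranged from 3.47- to 4.66-fold with 1 array left out. Over 10 alternatives, 616 bounds of single members moved by less than the replicate spread and 64 by more. None fell below 1, which the rule had all but fixed. The bounds rest on the lowest signal told from background on each control array, which limits what they can show of weakly expressed genes.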
